A study of Mus musculus with 12 samples.

Results

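Hypoxia and glycolysis genes were followed in femoral bone marrow of male ICR mice, an outbred stock. The 10 genes were Slc2a1, Hk2, Pfkl, Pgk1, Ldha, Pdk1, Vegfa, Egln3, P4ha1 and Bnip3. They were taken by gene symbol from the deposited table, where each of the 10 has 1 row among 34745 genes. Whole-marrow RNA of 12 mice was sequenced, 1 library per mouse, with 4 groups of 3 mice. Normal mice had saline. The other groups had cyclophosphamide, a cytotoxic drug that depletes marrow, at 80 mg/kg on each of days 5 to 7 of 1 week. During that week the model group had saline by mouth, the QJSB group had Qi-Jing-Sheng-Bai granule at 3 g/kg/day, and the leucogen group had leucogen, a drug given for low leucocyte counts, at 20 mg/kg/day. No group had QJSB or leucogen without cyclophosphamide, so neither agent was seen in undamaged marrow. The table heads the groups Blank, Model, Stilbene and Positive, and these were read as normal, model, QJSB and leucogen by the meaning of the words and by elimination.

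When oxygen is short, the transcription factor HIF-1 is no longer hydroxylated by the EGLN enzymes and marked for breakdown, and it then raises genes for glucose uptake, glycolysis and vessel growth. In that programme SLC2A1 takes up glucose, hexokinase 2 (Hk2) traps it by phosphorylation, and PFKL, the liver-type phosphofructokinase, commits it to glycolysis. Phosphoglycerate kinase 1 (Pgk1) then makes ATP, and lactate dehydrogenase A (Ldha) turns pyruvate into lactate. PDK1 blocks pyruvate dehydrogenase and so keeps pyruvate out of the mitochondrion. VEGFA is the ligand that drives vessel growth, EGLN3 is a HIF hydroxylase and itself a HIF target, P4HA1 hydroxylates proline in collagen, and BNIP3 sits on mitochondria and promotes their removal. Marrow is a low-oxygen tissue, and granulocytes and their precursors depend strongly on glycolysis. Several of these genes also respond to growth signals and differ between blood cell types, so their levels do not by themselves measure oxygen.

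HIF-1 binds a short core, and the letters ACGTG were searched on both strands in the RefSeq promoters of the 10 genes (300 bases, from 250 before to 50 after a start, build GRCm38.p6). All 10 symbols matched. The letters were in at least 1 listed promoter of 8 of the 10 genes, in 28.8% of the 10038 tested genes that had a promoter in the same table, and in 34.2% of the 1753 that were higher in model than in normal marrow. Counted by promoter, 19.6% of 32851 held them. Pdk1 and Pfkl had none in these windows, and Vegfa had none at its upstream start. No other form of the core was searched, so a gene without these letters may still hold one. Below are the 60 bases around the match nearest to the start for the 6 genes whose window lies outside annotated exons, 4 that rose in the model and 2 that were not called. They are shown so that genes that rose can be set beside genes that were not called. The stretch of Ldha lies in an intron of its annotated gene, and the other 5 lie upstream of theirs. Capitals mark ACGTG or its reverse complement, which overlap in the palindrome of Ldha and Bnip3.
Ldha, chr7:46845742-46845801, plus strand: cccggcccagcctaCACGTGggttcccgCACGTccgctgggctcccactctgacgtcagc
Pgk1, chrX:106186941-106187000, plus strand: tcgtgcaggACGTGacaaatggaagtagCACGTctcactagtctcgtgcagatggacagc
Hk2, chr6:82774475-82774534, minus strand: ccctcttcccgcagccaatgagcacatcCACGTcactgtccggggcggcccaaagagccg
Egln3, chr12:54204065-54204124, minus strand: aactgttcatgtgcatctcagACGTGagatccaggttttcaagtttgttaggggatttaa
Bnip3, chr7:138909582-138909641, minus strand: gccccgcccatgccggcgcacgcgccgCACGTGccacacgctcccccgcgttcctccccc
P4ha1, chr10:59323236-59323295, plus strand: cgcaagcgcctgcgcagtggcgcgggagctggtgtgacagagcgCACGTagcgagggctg
The match nearest to the start began 34 bases before it in Ldha, 131 in Pgk1, 52 in Hk2, 229 in Egln3, 107 in Bnip3 and 16 in P4ha1. The Pgk1 stretch holds 2 matches on opposite strands. A match in letters is no measure of binding, which was not assayed.

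All 10 are protein-coding genes, and the table gives their loci on GRCm38. Slc2a1 lies at chr4:119108711-119137983 and Pgk1 at chrX:106187100-106203699. Hk2 lies at chr6:82725025-82774454, Pfkl at chr10:77986947-78010083 and Ldha at chr7:46841475-46855627. Pdk1 lies at chr2:71873224-71903858, Vegfa at chr17:46016993-46032377 and Egln3 at chr12:54178981-54203860. P4ha1 lies at chr10:59323296-59373304 and Bnip3 at chr7:138890836-138909519. Slc2a1 and Hk2 overlap genes of the opposite strand, which held at most 7 and 18 counts in any library. The pseudogenes Ldha-ps and Ldha-ps2 held at most 25 counts in any library, and Pgk1-rs7 and Pgk1-ps3 at most 10. Copies of Ldha and Pgk1 under other names were not looked up. Every one of the 10 genes passed the filter on low counts in all 6 comparisons, and the smallest count of any of them in any library was 94.

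Library totals ran from 11172547 to 18545198 counts. Markers of several cell types differed between model and normal marrow. All 13 erythroid markers fell in the model, and their summed level went from 18400 to 22900 CPM (read counts scaled to a common library size with TMM factors) in normal marrow to 198 to 1910. Of 7 promyelocyte markers 5 rose, from a sum of 801 to 1090 CPM to 6910 to 9590. Of 16 rows of late neutrophil markers 6 fell and none rose. All 8 mature B cell markers fell, as did 6 of 8 for pre-B cells, 8 of 9 for T and NK cells with 1 higher, 6 of 7 for eosinophils and 4 of 14 for proliferating cells. The summed level of the T and NK markers was nevertheless higher in the model, at 105 to 134 CPM against 78.4 to 102 CPM in normal marrow. Of 11 monocyte and macrophage markers 5 fell and 3 rose, 3 of 8 endothelial markers rose, 1 of 9 for stroma and bone rose, and 0 of 7 for megakaryocytes passed. The shares called were 37.5% for late neutrophils, 37.5% for endothelial cells and 28.6% for proliferating cells. Within each of these lists all calls had the same direction, where 16.1% of all genes rose and 2803 of 14752 fell. The summed level of the proliferation markers went from 8350 to 8610 CPM in normal marrow to 3920 to 5220 CPM in the model, without overlap. The late neutrophil sums, 20600 to 24300 against 5300 to 20700 CPM, overlapped slightly. The endothelial sums, 135 to 150 against 112 to 147 CPM, overlapped too. Whether these counts differ from those of all genes was not tested. The part of these shifts in the values of the 10 genes was not tested. No marker of the erythroid, promyelocyte and late neutrophil lists was at 0 in all libraries of a group. In RNA of whole marrow, fewer cells of a type and less RNA per cell cannot be told apart.

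Cyclophosphamide raised most of the set. Of the 10 genes 7 rose in model against normal marrow and none fell, where 35.1% of 14752 genes tested passed the same cutoff in either direction and 16.1% rose. The cutoff was a change of over 1.5-fold in either direction, the limit of the study's methods, with a Benjamini-Hochberg adjusted p under 0.05 over all genes tested. The median log2 fold change of the 10 genes was 0.97, against 0.02 for all genes. All 10 estimates were above 0. The 10 genes and the other lists were chosen with earlier results of these data known, so the counts beside these shares are descriptions.

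The genes of the set from glucose uptake to lactate, Slc2a1, Hk2, Pfkl, Pgk1 and Ldha, were all called higher. Other genes of the same steps, given below, moved in both directions, with falls of Slc2a3 and Pfkm and rises of Pfkp and Ldhb. Slc2a1 stood at 9.49, 8.30 and 11.2 CPM in the 3 normal libraries and at 12.4, 13.5 and 25.3 CPM in the 3 model libraries. The groups did not overlap, but the third model library was far above the other two. The log2 fold change was 0.83 ± 0.29 (SE, adjusted p = 0.0484), and without that library it was 0.43 with an adjusted p of 0.116. The call was lost in 7 of 16 other settings. They include each normal library left out in turn (log2 0.82, 0.73 and 0.95, edgeR adjusted p = 0.125, 0.151 and 0.0746) and the DESeq2 size factors used in edgeR (adjusted p = 0.0513). Hk2 went from 52.0, 46.1 and 48.4 CPM to 82.3, 77.3 and 108 CPM. Every model library was above every normal library, a rise of 1.83-fold (log2 0.87 ± 0.16 SE, adjusted p = 0.00256). Pfkl went from 29.0, 24.8 and 28.9 CPM to 61.2, 48.8 and 72.5 CPM. It rose 2.21-fold (log2 1.15 ± 0.17 SE, adjusted p = 0.00105), again without overlap.

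The 2 most abundant members behaved alike. Pgk1 stood at 174, 157 and 148 CPM in normal and 317, 431 and 428 CPM in model marrow, and Ldha at 165, 159 and 153 against 310, 322 and 355 CPM. Both were far apart from normal in every library. Pgk1 rose 2.46-fold (log2 1.30 ± 0.15 SE, adjusted p = 0.000352), and Ldha rose 2.08-fold (log2 1.06 ± 0.11 SE, adjusted p = 0.000214). Per transcript length, Pgk1 reached 137 ± 17.6 FPKM and Ldha 76.6 ± 2.38 FPKM in the model (mean ± SD, n = 3), with Hk2 at 13.9 ± 2.12 and Slc2a1 at 3.46 ± 1.30 FPKM. Pdk1, which diverts pyruvate from the mitochondrion, stood at 21.6, 22.0 and 24.3 CPM in normal and 37.3, 31.4 and 30.4 CPM in model marrow. The groups did not overlap, but its log2 fold change of 0.55 ± 0.14 (SE, adjusted p = 0.0160) was under the fold limit.

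Among the genes outside glycolysis, the response was split. Egln3 had the largest change of the 10, from 8.04, 6.45 and 8.75 CPM in normal to 19.3, 26.2 and 29.0 CPM in model marrow, which was 3.21-fold (log2 1.68 ± 0.21 SE, adjusted p = 0.000471). Vegfa went from 11.6, 10.7 and 9.51 CPM to 16.5, 22.5 and 35.8 CPM, with no overlap but a wide spread in the model, and rose 2.36-fold (log2 1.24 ± 0.28 SE, adjusted p = 0.00783). P4ha1 stood at 21.2, 31.3 and 24.2 CPM in normal and 30.6, 24.9 and 43.3 CPM in model marrow. Its groups overlapped and it was not called (log2 fold change 0.37 ± 0.23 SE, adjusted p = 0.234). Bnip3 stood at 14.4, 12.2 and 14.2 CPM against 13.3, 20.3 and 14.6 CPM, also with overlap (log2 fold change 0.24 ± 0.20 SE, adjusted p = 0.372). Bnip3 had the smallest range of group means among the 10 genes, 0.21 on the log2 CPM scale, while Vegfa had 2.05 and Egln3 2.00.

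**Figure D1:**
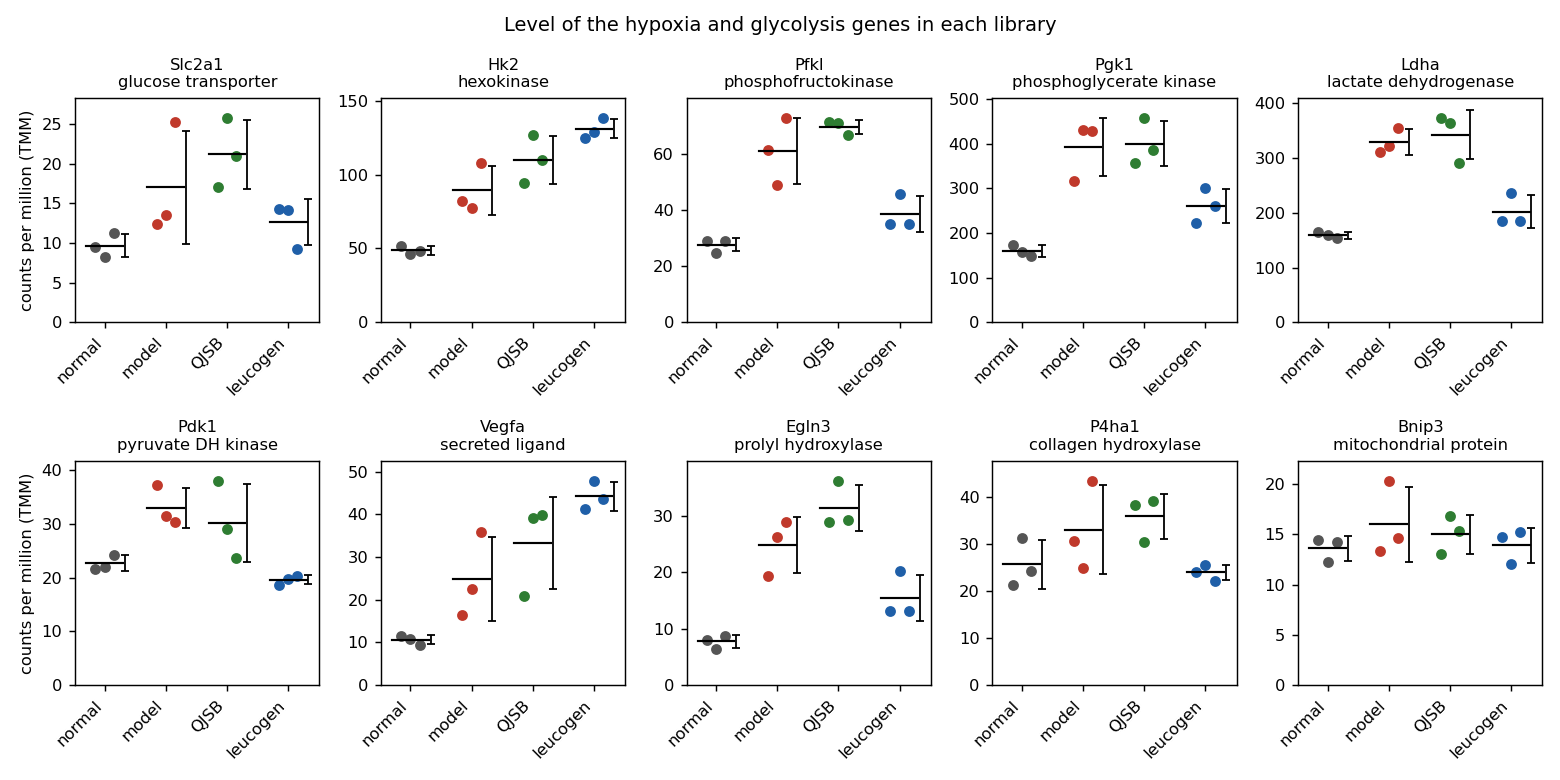
Level of each of the 10 genes in each library, in CPM (counts scaled to a common library size with TMM factors), with 1 point per mouse, a line at the group mean and a bar of 1 SD (n = 3). Pfkl, Pgk1 and Ldha are high in model and QJSB and lower in leucogen marrow, Hk2 and Vegfa are highest in leucogen marrow, and Bnip3 stays between 12 and 20.3.

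Of 16 other glycolysis genes tested, 9 rose in the model, 3 fell and 4 were not called, where 16.1% of all genes rose, with a median log2 fold change of 1.12 against 0.02 for all genes. The largest rises were of Pfkp, the platelet-type phosphofructokinase, of Pgam1, a phosphoglycerate mutase, and of Eno1, an enolase, at log2 1.74 ± 0.17, 1.73 ± 0.15 and 1.66 ± 0.16 (SE). The falls were of Pklr, the red-cell and liver pyruvate kinase (log2 -5.16 ± 0.31), of Bpgm, which makes 2,3-bisphosphoglycerate in red cells (log2 -4.75 ± 0.41), and of the muscle-type phosphofructokinase Pfkm (log2 -1.06 ± 0.22). These 3 fell in the same libraries as the 13 erythroid markers, and the part of the erythroid fall in the values of this route was not tested.

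**Figure D2:**
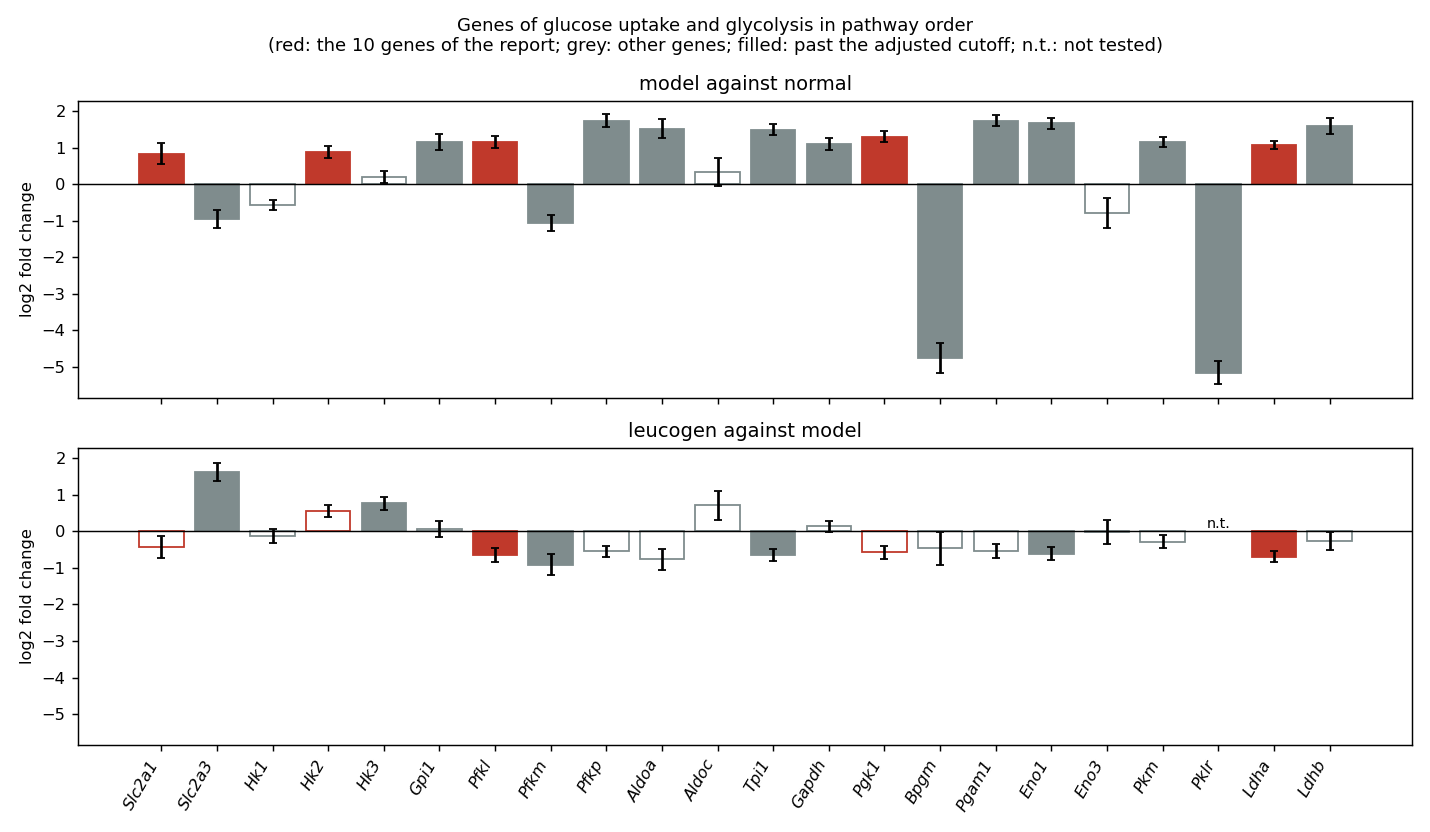
Log2 fold change of genes of glucose uptake and glycolysis in pathway order, from glucose transporters at the left to lactate dehydrogenases at the right, with bars of 1 SE. Filled bars passed the adjusted cutoff, and genes marked n.t. were not tested. In model against normal marrow most bars are above 0, with Bpgm and Pklr far below 0. In leucogen against model marrow most bars are below 0, and Slc2a3, Hk2, Hk3, Gpi1, Aldoc and Gapdh are above it.

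Of 12 tested genes of the HIF system, the oxygen-sensing machinery, 2 rose in the model and none fell. These were 16.7%, where 16.1% of all genes rose, so the count is no result about this list. The median log2 fold change was 0.01. The rises were of Hif1a, the oxygen-regulated subunit of HIF-1 (log2 0.84 ± 0.13 SE, adjusted p = 0.00107), and Egln1, the main HIF hydroxylase (log2 0.71 ± 0.20 SE, adjusted p = 0.0216). HIF is regulated mostly as protein, which was not measured here. Other known hypoxia targets moved in both directions, with 10 rises and 4 falls among 30 tested and a median of 0.28, against 0.02 for all genes. The share called was 46.7%, where 35.1% of all genes passed and 16.1% rose. Rises outnumbered falls in this list, whereas over all genes 2368 rose and 2803 fell. The largest rises were of Stc2, a secreted stanniocalcin (log2 3.50 ± 0.66), the mitochondrial adenylate kinase Ak4 (log2 2.83 ± 0.30) and the carbonic anhydrase Car12 (log2 2.12 ± 0.49). The largest falls were of Bnip3l, the relative of Bnip3 that clears mitochondria from maturing red cells (log2 -2.11 ± 0.19), of Narf (log2 -1.59 ± 0.13) and of the heme-degrading enzyme Hmox1 (log2 -1.43 ± 0.15). Reads of Bnip3l may be shared with its pseudogene Bnip3l-ps, which held 969 to 4480 counts per library.

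Of 13 tested genes of pyruvate entry into mitochondria, 4 rose and 1 fell in the model, or 38.5%, where 35.1% of all genes passed. The median log2 fold change was 0.46. Dlat, a core subunit of pyruvate dehydrogenase, rose by log2 0.91 ± 0.13, Mpc1, a subunit of the pyruvate carrier, by 0.86 ± 0.21, and the dehydrogenase-activating phosphatase Pdp2 by 0.75 ± 0.17 (SE). The other carrier subunit, Mpc2, fell by 0.67 ± 0.17 on the log2 scale.

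Among glucose transporters, hexokinases and phosphofructokinases some members took different shares after cyclophosphamide. The shares of Ldha, Pdk1 and Pdk3 in their families changed little. The shares are of summed FPKM, so they compare genes per transcript length, and they are descriptions, since an exact permutation test of 3 against 3 libraries cannot go below p = 0.1. Slc2a1 was 9.42% ± 0.875 (SD, n = 3) of the sum with Slc2a3, the high-affinity glucose transporter, in normal marrow and 26.5% ± 5.43 in the model. Slc2a3 itself fell (log2 -0.95), from a mean of 194 to 99.5 CPM. Hk2 went from 15.6% ± 0.907 to 26.3% ± 1.89 of the 3 hexokinases, while Hk3, the myeloid isoform, held 50.9% ± 2.88 and 53.1% ± 4.87. Pfkl went from 29.3% ± 2.53 to 42.6% ± 2.39 of the phosphofructokinases and Pfkm from 52.3% ± 2.18 to 17.0% ± 5.72. Ldha supplied 96.0% ± 0.377 and 94.2% ± 1.34 of the lactate dehydrogenase sum, so Ldhb was the minor form in both groups. Pdk1 was a minor pyruvate dehydrogenase kinase, at 11.2% ± 1.12 and 12% ± 2.42, and Pdk3 held 72.1% ± 8.95 and 71.6% ± 6.10.

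**Figure D3:**
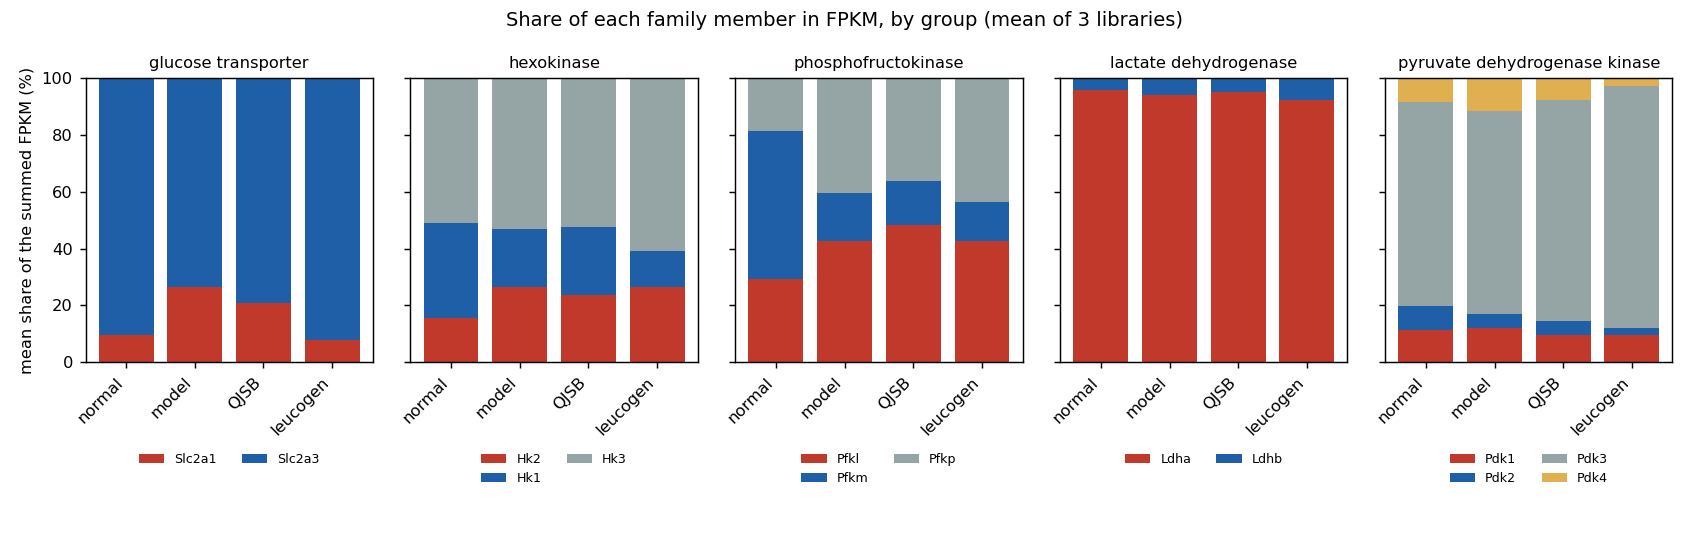
Mean share of each gene in the summed FPKM of its family, in percent, by group (3 libraries each), with the gene of the set in red at the bottom of each bar. The share of Pfkm shrinks from 52.3% in normal to 17.0% in model marrow, and that of Slc2a1 is 26.5% in model and 7.92% in leucogen marrow.

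Other relatives gave the setting of the set. Flt1, a VEGFA receptor, rose from a mean of 4.03 ± 1.13 to 16.5 ± 1.14 CPM (log2 2.03), while the main endothelial receptor Kdr stood at 5.60 and 7.05 CPM and the co-receptors Nrp1 and Nrp2 at 45.4 and 59.6 and at 13.4 and 13.8 CPM, none of them called. The ligands Vegfb and Vegfc were low, at 3.49 and 2.59 and at 1.85 and 1.12 CPM, so Vegfa was the most abundant of the 3 ligands per length in the model (2.54 FPKM, against 1.28 and 0.644). P4hb, the shared subunit of the collagen hydroxylase and a protein disulfide isomerase, went from 127 to 550 CPM (log2 2.12), whereas the other catalytic subunits P4ha2 and P4ha3 stayed under 1 CPM in every group mean. Egln2 stood at 36.9 and 32 CPM, and the transporter Slc2a6 at 13.6 and 8.63 CPM, neither called. Hk1 went from 188 to 125 CPM (log2 -0.58, under the fold limit), Ldhb rose from 2.85 to 8.57 CPM, Pdk2 and Pdk4 stood at 6.11 and 4.73 and at 6.53 and 11.4 CPM without a call, and Pgk2, the testis form, was at 0 counts in every library.

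No change of the set was called under QJSB. In QJSB against model marrow 0 of the 10 genes were past the adjusted cutoff, where 0.0% of 14486 genes passed. By the study's looser cutoff, the same fold limit with an unadjusted P under 0.05, 3.08% of all genes passed, and none of the 10 did. The edgeR test found 723 genes at an unadjusted P under 0.05, DESeq2 called 8 genes at the adjusted cutoff, and a fit with the replicate number as a block called 18, none of them a member. The median log2 fold change of the 10 was 0.14, against -0.02 for all genes, and the single values ran from -0.14 to 0.40.

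The groups overlapped for each gene. Vegfa, with the largest estimate, stood at 20.9, 39.2 and 39.8 CPM under QJSB against 16.5, 22.5 and 35.8 CPM in the model (log2 0.40 ± 0.34 SE, adjusted p = 0.801). One QJSB library sat low and one model library high. Egln3 stood at 28.9, 36.2 and 29.3 CPM (log2 0.33 ± 0.21 SE, adjusted p = 0.767) and Slc2a1 at 17.1, 25.7 and 20.9 CPM (log2 0.30 ± 0.30 SE, adjusted p = 0.832). Hk2 stood at 94.0, 127 and 110 CPM, all above 2 of the 3 model libraries (log2 0.29 ± 0.19 SE, adjusted p = 0.767). Pgk1, at 358, 457 and 386 CPM, and Ldha, at 372, 363 and 290 CPM, had estimates of 0.01 ± 0.19 and 0.04 ± 0.16. Pfkl was the tightest, at 71.1, 70.8 and 66.5 CPM (log2 0.18 ± 0.18 SE). Within same-numbered libraries, Vegfa, Egln3 and Hk2 were higher under QJSB in 3 of 3 pairs, and each of the other 7 genes was higher in 1 or 2. With the replicate number as a block the values were 0.41 ± 0.20 for Vegfa, 0.34 ± 0.20 for Egln3 and 0.29 ± 0.18 for Hk2 (log2, SE), with edgeR adjusted p of 0.529, 0.590 and 0.607. With these standard errors a change of moderate size could have been missed, and the values do not show that the groups were equal. Of the other lists, none of the tested genes of the HIF system, of the hypoxia targets, of glycolysis or of pyruvate entry passed the adjusted cutoff.

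Against normal marrow, QJSB gave the same count as the model. Again 7 of the 10 genes rose and none fell, where 37.9% of all genes passed and 18.0% rose, and the median log2 fold change was 1.17. Egln3 was 4.10-fold higher (log2 2.03 ± 0.18 SE, adjusted p = 0.000123), Vegfa 3.16-fold and Pfkl 2.54-fold. Slc2a1 was 2.22-fold higher (log2 1.15 ± 0.20 SE, adjusted p = 0.00308) without any overlap of the groups. P4ha1 (log2 0.50 ± 0.18, adjusted p = 0.0581), Pdk1 (log2 0.43 ± 0.19, adjusted p = 0.0987) and Bnip3 (log2 0.15 ± 0.16) were not called. The model and QJSB comparisons share the same normal libraries, so their values are given side by side only.

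Leucogen split the set. In leucogen against model marrow 3 of the 10 genes fell, 1 rose and 6 were not called, where 23.1% of 14184 genes passed, 11.6% higher and 11.5% lower. The median log2 fold change of the 10 was -0.52, against -0.05 for all genes, and 8 of the 10 estimates were below 0. The genes below 0 included the lower glycolytic steps, and the 2 above 0 were Vegfa and Hk2.

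Ldha stood at 184, 236 and 185 CPM under leucogen, all below the lowest model library at 310 CPM. It fell by 0.70 on the log2 scale (SE 0.15, adjusted p = 0.0100), to a level still above that in normal marrow. Pfkl stood at 34.8, 45.7 and 34.9 CPM against 48.8 to 72.5 CPM in the model and fell by 0.65 (SE 0.18, adjusted p = 0.0301). Pdk1 stood at 18.7, 19.7 and 20.3 CPM, below every model and every normal library, and fell by 0.75 (SE 0.15, adjusted p = 0.00982). Pgk1, at 223, 300 and 260 CPM, did not overlap the model either, but its log2 fold change of -0.58 ± 0.17 (SE, adjusted p = 0.0350) was just inside the fold limit. Egln3 stood at 13.2, 20.3 and 13.1 CPM, overlapping the lowest model library, with -0.66 ± 0.23 (SE, adjusted p = 0.0588). The remaining values were -0.43 ± 0.30 for Slc2a1, -0.46 ± 0.21 for P4ha1 and -0.20 ± 0.22 for Bnip3, none of them called.

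Vegfa and Hk2 went the other way. Vegfa stood at 41.2, 47.8 and 43.6 CPM under leucogen, above every library of the other 3 groups, and was 1.78-fold higher than in the model (log2 0.83 ± 0.25 SE, adjusted p = 0.0397). Hk2 stood at 125, 129 and 138 CPM, above the 3 model libraries, with a log2 fold change of 0.55 ± 0.16 (SE, adjusted p = 0.0294) that was just inside the fold limit. In the plot of fold changes these 2 genes are the only ones to the right of 0 for leucogen against model.

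The size of the split depended on the scaling. Scaling by total counts moved the median of all genes by -0.17 on the log2 scale and the calls over all genes from 1640 higher and 1635 lower to 1150 higher and 2655 lower. Under it Vegfa was no longer called (log2 0.67, adjusted p = 0.056), Pgk1, Egln3 and P4ha1 joined the falls, and 6 of the 10 genes fell with none higher. Vegfa also lost its call in 5 of the 6 fits that left out 1 library. Without leucogen replicate 1 or without leucogen replicate 3, only 1 of the 10 genes stayed past the cutoff.

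**Figure D4:**
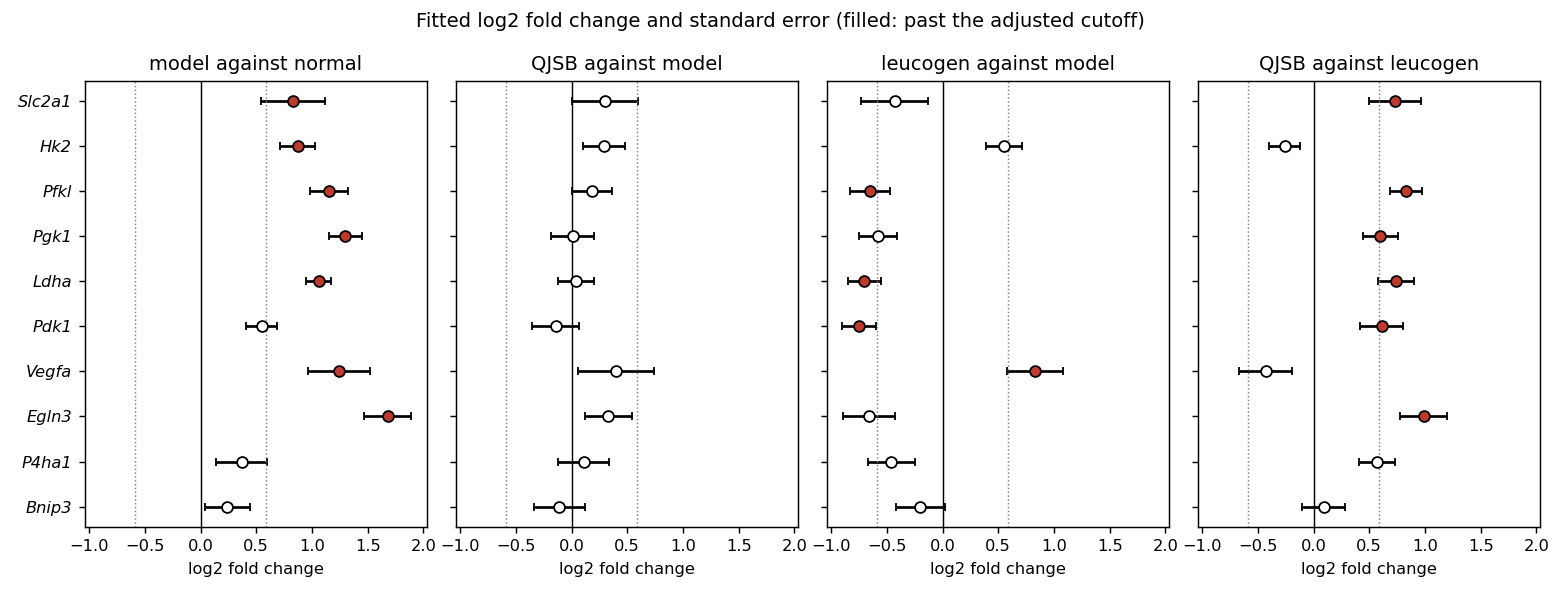
Fitted log2 fold change of each of the 10 genes with its standard error in 4 comparisons, with dotted lines at the 1.5-fold limit in both directions. Filled points passed the adjusted cutoff: 7 for model against normal, none for QJSB against model, 4 for leucogen against model and 6 for QJSB against leucogen.

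Cell type markers moved in the same comparison. Over all genes 23.1% passed in leucogen against model, 11.6% higher and 11.5% lower. Of 16 rows of late neutrophil markers 10 rose under leucogen and none fell, and their sum went from 5300 to 20700 CPM in the model to 50700 to 60400 CPM. Of 7 promyelocyte markers 4 fell, from a sum of 6910 to 9590 CPM to 3620 to 4760 CPM. The part of these changes in the levels of the 10 genes was not tested.

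The other lists under leucogen are read beside the 23.1% of all genes that passed. The shares called were 26.7% for glycolysis, 28.1% for hypoxia targets, 25% for the HIF system and 30.8% for pyruvate entry, all near that share, so the counts are no result about these lists. Of 15 other glycolysis genes tested 1 rose and 3 fell. Hk3, the myeloid hexokinase, rose by log2 0.76 ± 0.19, while Pfkm fell by 0.91 ± 0.28, the isomerase Tpi1 by 0.65 ± 0.17 and Eno1 by 0.61 ± 0.18 (SE). Of 32 other hypoxia targets 6 rose and 3 fell. The largest rises were of the transporter Slc2a3 (log2 1.62 ± 0.25), of Pfkfb4, which makes the activator of phosphofructokinase (log2 1.28 ± 0.22), and of Lox, which cross-links collagen (log2 1.13 ± 0.26). The falls were of Mif, a cytokine (log2 -2.16 ± 0.28), of the lipoprotein receptor Vldlr (log2 -1.28 ± 0.24) and of Ak4 (log2 -1.10 ± 0.26). In the HIF system, the elongin C gene Tceb1 rose by log2 0.94 ± 0.24 and the elongin B gene Tceb2 fell by 1.03 ± 0.26, and Hif3a fell by 1.40 ± 0.34. Among 13 genes of pyruvate entry 1 rose, Mpc2 (log2 0.82 ± 0.17), and 3 fell, with Pdk4 at log2 -2.52 ± 0.42, Pdk2 at -1.40 ± 0.34 and Pdp2 at -0.81 ± 0.22.

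The relatives placed the leucogen levels of the set. Slc2a1 was 7.92% ± 1.74 of its sum with Slc2a3, lower than in each model library, and Slc2a3 reached 305 CPM. Hk2 kept 26.6% ± 3.76 of the hexokinases and Hk3 held 60.9% ± 3.02. P4hb, at 184 CPM, was lower than in the model (log2 -1.57), and Bnip3l, at 239 CPM, was higher (log2 0.59).

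Against normal marrow, 4 of the 10 genes were higher under leucogen and none was lower, where 37.7% of all genes passed and 17.8% rose. The 4 were Vegfa (4.23-fold, log2 2.08 ± 0.12 SE, adjusted p = 6.09e-07), Hk2 (2.71-fold, log2 1.44 ± 0.09 SE, adjusted p = 1.05e-06), Egln3 (2.04-fold, log2 1.03 ± 0.21 SE) and Pgk1 (1.65-fold, log2 0.73 ± 0.11 SE). Pfkl and Ldha did not overlap normal marrow but were under the fold limit, at log2 0.50 ± 0.13 (adjusted p = 0.00951) and 0.37 ± 0.10 (adjusted p = 0.0141). Pdk1 stood below normal in every library, with a log2 fold change of -0.19 ± 0.12 that was not called (adjusted p = 0.192). Slc2a1 was at 14.3, 14.2 and 9.21 CPM and overlapped normal marrow (log2 0.41 ± 0.20, adjusted p = 0.121). The median of the 10 was 0.45.

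The direct comparison of the 2 agents tested the difference itself. Of the 10 genes 6 were higher under QJSB than under leucogen and none was lower, where 24.6% of 14266 genes passed and 12.9% were higher. The median log2 fold change was 0.60, against 0.03 for all genes. Egln3 was 1.99-fold higher (log2 0.99 ± 0.21 SE, adjusted p = 0.00995) and Pfkl 1.78-fold (log2 0.83 ± 0.14 SE, adjusted p = 0.00540). Ldha was 1.67-fold and Slc2a1 1.66-fold higher (log2 0.74 ± 0.16 and 0.73 ± 0.23 SE, adjusted p = 0.0103 and 0.0442). Pdk1 and Pgk1 were close to the fold limit, at log2 0.61 ± 0.19 and 0.60 ± 0.16 (adjusted p = 0.0427 and 0.0248), and P4ha1 was just inside it at 0.57 ± 0.16. Leaving out leucogen replicate 1 left 2 of the 6 calls, and leaving out leucogen replicate 3 left 1. Over 16 other settings the call was lost in 9 for Pdk1, 7 for Slc2a1, 5 for Pgk1, 2 for Ldha and 1 for Egln3. Pfkl kept its call in each. Cell markers also differed between these groups. Of 14 markers of proliferating cells 6 were higher under QJSB and none lower, with sums of 4160 to 5160 CPM against 3740 to 4740 under leucogen. Of 7 promyelocyte markers 3 were higher and 1 lower (8300 to 9050 against 3620 to 4760 CPM), and of 11 tested monocyte and macrophage markers 4 were higher and 1 lower (629 to 880 against 651 to 955 CPM). Of 16 rows of late neutrophil markers 1 was lower and none higher, with sums of 7980 to 39400 against 50700 to 60400 CPM. The part of these markers in the differences of the 10 genes was not tested.

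Vegfa and Hk2 were the 2 genes with lower estimates under QJSB. Vegfa did not overlap, with the highest QJSB library at 39.8 CPM and the lowest leucogen library at 41.2 CPM, yet its log2 fold change of -0.43 ± 0.24 (SE, adjusted p = 0.210) was not called. Hk2 overlapped by 1 QJSB library at 127 CPM (log2 -0.26 ± 0.14 SE, adjusted p = 0.197). Bnip3, at 13, 16.8 and 15.3 CPM under QJSB and 14.7, 12 and 15.2 CPM under leucogen, had a log2 difference of 0.09 ± 0.19.

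By group mean, the 8 genes other than Vegfa and Hk2 had their 2 highest levels in model and QJSB marrow, and those 2 groups did not differ beyond their spread for any of the 10 genes. Slc2a1, Pfkl, Pgk1, Ldha and Egln3 followed the order normal, leucogen, model, QJSB, with means for Egln3 of 7.74 ± 1.18, 15.5 ± 4.12, 24.8 ± 4.99 and 31.5 ± 4.08 CPM (SD, n = 3). In that order, only the step from normal to leucogen passed the cutoff between neighbours for Egln3 and Pgk1, only the step from leucogen to model for Pfkl and Ldha, and none for Slc2a1. Vegfa and Hk2 followed the order normal, model, QJSB, leucogen, with means for Vegfa of 10.6 ± 1.04, 24.9 ± 9.90, 33.3 ± 10.7 and 44.2 ± 3.32 CPM, and for both genes only the first step passed. For Pdk1 and P4ha1 the lowest mean was that of leucogen marrow, at 19.6 ± 0.851 and 23.9 ± 1.67 CPM, and neither was called different from normal.

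The nearest patterns were looked up for the 2 genes with the widest range, Vegfa and Egln3, as the root mean square distance of gene-centred log2 CPM over the 12 libraries among 11048 genes with a mean of at least 5 CPM. Nearest to Vegfa were Ptgs1, at a distance of 0.19, Dgkg, at 0.19, and Dram1, at 0.20. Ptgs1, for cyclooxygenase-1, had group means of 44.6, 98.9, 140.0 and 163.0 CPM in normal, model, QJSB and leucogen marrow. Nearest to Egln3 were Aprt, an adenine salvage enzyme, at 0.15, the glycolytic enolase gene Eno1 at 0.17 and the fatty acid elongase gene Elovl5 at 0.17. Eno1 had group means of 56.0, 176.0, 203.0 and 115.0 CPM in the same order of groups. All 12 libraries are shared by these genes, and the distances are descriptions.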

How the data were processed

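Marrow cell RNA from 12 mice was sequenced as strand-specific libraries depleted of ribosomal RNA. The authors used Seqtk to filter reads and Hisat2 2.0.4 to map to GRCm38.p4. The counting program, its strand setting and the annotation version are not given in the sources used here. The deposited table holds whole-number counts per gene and FPKM, which the authors computed from fragments, transcript length and total fragments. 0 columns were left unused.

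Differences were tested by edgeR 4.0.16 (R 4.3.3) with glmQLFit in robust mode and glmQLFTest, after filterByExpr and TMM scaling, on the libraries of the 2 groups compared, over all genes with Benjamini-Hochberg adjustment. The code was tested on simulated data. Log2 CPM used a prior count of 2. Alternatives were DESeq2 1.42.0, limma 3.58.1 on log2(FPKM + 0.1) or log2(FPKM + 1), other scalings and filters, 1 fit of all 12 libraries, a replicate block and each library left out. Each library is 1 mouse. Libraries of a group differed by more than counting error (chi-square per degree of freedom of 10.2 to 99.6).

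Same-numbered libraries deviated together in QJSB against model, with correlations of 0.43, 0.12 and 0.11 for replicates 1, 2 and 3. No label says what a number marks, and the paper describes random allocation to groups, so pairing was not established. The values printed are from the fit without the block unless the block is named. All 10 genes and their relatives were named, and per pathway list the 3 largest rises and falls past the adjusted cutoff with a mean of at least 1 CPM. Gene roles are background knowledge. The 10 genes and all lists were chosen with earlier results of these data known. Promoter sequences are from RefSeq on GRCm38.p6. Doses and days are those in the study's methods.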

Additional observations from a re-analysis of the deposited data

How the results depend on the processing

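Over 10 other settings, 6 to 8 of the 10 genes were past the adjusted cutoff in model against normal, 0 in QJSB against model, 3 to 6 in leucogen against model, 7 in QJSB against normal, 4 in leucogen against normal and 4 to 7 in QJSB against leucogen. With 1 library left out the counts were 6 to 8, 0, 1 to 5, 7 to 8, 4 and 1 to 5 in the same order. Over all genes, leaving out 1 library gave 1239 to 3953 calls in leucogen against model, 1544 to 3585 in QJSB against leucogen and 0 to 3 in QJSB against model. In that last comparison DESeq2 called 8 genes and the replicate block 18. At the study's cutoff, 0 to 1 of the 10 genes passed there with 1 library left out, the 1 being Slc2a1 without model replicate 3. Fits without a library have 5 samples.

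Scaling by total counts changed the split of all genes in model against normal from 2368 higher and 2803 lower to 3024 and 2346 (median shift 0.12), and at the study's cutoff in QJSB against model from 243 and 203 to 153 and 282. With the replicate block Pfkl lost its call in leucogen against model (adjusted p = 0.0686) and Pdk1 in QJSB against leucogen (adjusted p = 0.0569). In QJSB against leucogen the correlations of same-numbered libraries were 0.08 to 0.18, all positive. In the remaining comparisons same-numbered libraries did not all deviate together, with -0.09 to 0.11 in leucogen against model. Pairing by number was not established in any comparison.

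The estimates that changed sign were near 0 and not called in any of these fits. In QJSB against model, scaling by total counts gave Ldha -0.04 and Pgk1 -0.07, and limma on FPKM at each pseudocount and filter gave -0.05 and -0.06. With 1 library left out the ranges there were -0.02 to 0.15 for Ldha, -0.12 to 0.09 for Pgk1, -0.34 to 0.01 for Pdk1, -0.06 to 0.35 for P4ha1 and -0.23 to 0.09 for Bnip3. Bnip3 was -0.01 in leucogen against normal by total counts and with limma. With 1 library left out it ran from -0.02 to 0.14 there, from -0.31 to 0.04 in leucogen against model and from -0.02 to 0.18 in QJSB against leucogen, and P4ha1 from -0.20 to 0.09 in leucogen against normal. The cause was not tested.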
